A study of Mus musculus with 9 samples.

Results

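The genes described here encode the subunits and assembly factors of the mitochondrial respiratory chain, including the ATP synthase, and the proteins of the mitochondrial ribosome. A gene was taken as a respiratory chain member when its symbol began with Nduf, Uqcr or Atp5, or was Cox4 to Cox8 with a suffix or Sdha to Sdhd. It was taken as a mitochondrial ribosome member when its symbol was Mrpl or Mrps with a number. Each gene was read from the probe set of that gene alone with the highest mean over the arrays. This gave 166 genes of the 18193 measured, 90 of the respiratory chain and 76 of the mitochondrial ribosome. The filter on low signal left 164 of them, 88 and 76; Cox7b2, a testis isoform, and Ndufb4 lay below it at 59 or less and 69 or less on every array, on the scale of MAS5 signal units. Another 8 symbols, among them Ndufs6, Ndufa11, Mrpl30 and Mrpl53, were named only by probe sets of several genes and were not analysed here, nor was Cox7b.

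Gene expression was measured on 9 microarrays in the round, the flat and the hypertrophic layer of the growth plate, each in 3 litters of newborn wild-type Black Swiss mice (day 0), for which the labels give no transgene or treatment. In this plate, at the proximal end of the tibia, round cells lie farthest from the shaft, flat cells form columns, and hypertrophic cells border the forming bone. A sample pooled hand-cut cryosection pieces from 18 to 20 tibiae of 1 litter of 9 to 10 pups, and 2.7 to 4.6 µg of RNA was labelled. No step separated chondrocytes from other cells in the cut pieces, so fewer cells of a type and less RNA per cell cannot be told apart in these values.

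As background, complex I takes electrons from NADH, complex II from succinate, complex III passes them to cytochrome c, and complex IV hands them to oxygen, while complex V uses the resulting proton gradient to make ATP. Most subunits are encoded in the nucleus and imported, and a core set is made inside the organelle by the mitochondrial ribosome, whose own proteins are all nuclear-encoded. Cartilage has no blood vessels and its chondrocytes are known for relying on glycolysis, whereas skeletal muscle and osteoclasts are rich in mitochondria.

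The arrays had been scaled to a common mean before deposit, with a median signal of 123 to 152. The round array of litter 1 stood apart in RNA quality: its 3′ to 5′ probe set ratio for actin was 4.25 where the other arrays had 1.45 to 2.06, and for Gapdh it was 2.59 where they had 0.922 to 1.28. Among 88 respiratory chain genes it was at least 1.5 times both other round arrays in 10 (11.4%) and among 76 ribosomal genes in 9 (11.8%), against 7.08% of all tested genes. Chondrocyte markers were present in each layer, with a summed signal over 9 genes of 99979 to 124571 on round arrays, 68113 to 103471 on flat arrays and 69148 to 77573 on hypertrophic arrays. RNA of other tissues was present too. The summed signal of 20 skeletal muscle markers was 161180 to 266085 on round arrays, 387323 to 650660 on flat arrays and 162040 to 392339 on hypertrophic arrays, and none of the 20 was near 0: their layer means began at 805 on round arrays, 2488 on flat arrays and 1075 on hypertrophic arrays. The summed signal of 11 osteoclast markers was 5255 to 6530 on round arrays, 7710 to 12063 on flat arrays and 36708 to 50454 on hypertrophic arrays. That of 6 osteoblast markers was 69151 to 91569 on round arrays, 82147 to 134561 on flat arrays and 143650 to 168932 on hypertrophic arrays.

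The first comparison asked which members differed between the flat and the round layer. Respiratory chain transcripts were mostly higher in the flat layer: 40 of 88 were higher and 2 were lower (limma with the litter as a block, Benjamini-Hochberg adjusted p under 0.05 over 11313 genes). That is 47.7% called, against 17.0% of all tested genes, and 8.39% of all tested genes were higher and 8.64% lower. The median log2 difference of the 88 genes was 0.45, against -0.01 over all tested genes, and 84 of the 88 lay above 0, against 48.5% of all tested genes. Litters differed in size, with medians of 0.16, 0.43 and 0.69 in litters 1, 2 and 3, and 61 of the 88 genes were higher in the flat layer in every litter, against 22.3% of all tested genes. The flat and round arrays did not overlap, flat higher, in 42 genes, against 12.0% of all tested genes. In the mitochondrial ribosome 12 of 76 were higher and 0 were lower (26 at unadjusted p under 0.05), that is, 15.8% called against 17.0% of all tested genes in either direction and 8.39% in the higher direction. Their median was 0.24, with litter medians of 0.03, 0.26 and 0.46. Above 0 lay 69 of the 76, and 33 were higher in every litter, against 48.5% and 22.3% of all tested genes.

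**Figure D1:**
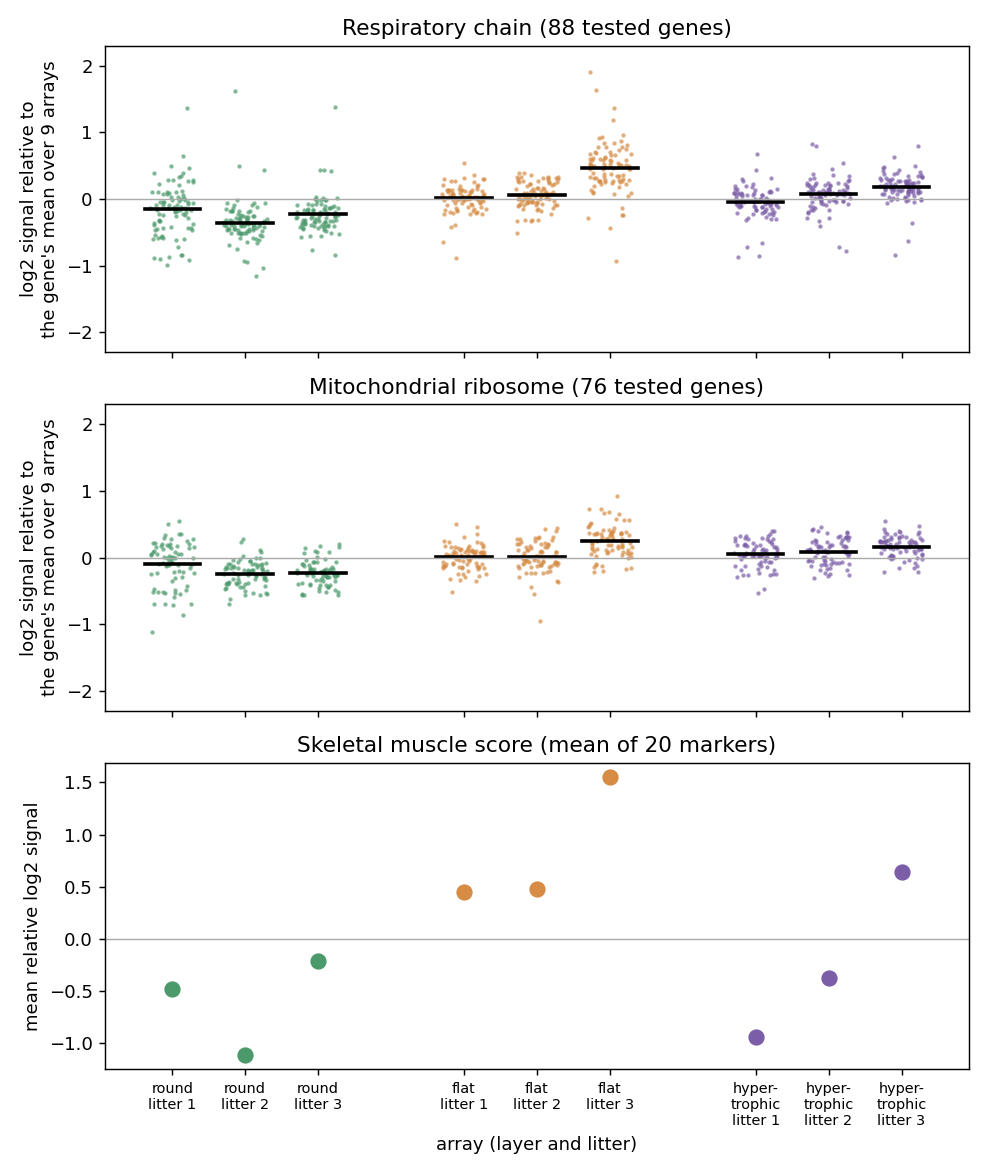
Log2 signal of each tested member relative to its own mean over the 9 arrays, by layer and litter, for the respiratory chain (top) and the mitochondrial ribosome (middle), with the mean of 20 skeletal muscle markers on the same scale (bottom). Points are genes and bars are their means. The respiratory chain mean is lowest on the round array of litter 2 (-0.35) and highest on the flat array of litter 3 (0.47), and the muscle score is lowest and highest on the same 2 arrays (-1.12 and 1.55).

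Single arrays moved these counts. Without round litter 2, round litter 3 or flat litter 3, 23, 21 and 21 respiratory chain genes were called between the flat and the round layer, while 10.8%, 12.8% and 12.1% of all tested genes were. Without the round array of litter 1, 60 were called. That count stands without the share of all tested genes, so it does not show whether members shifted apart from other genes. The ribosomal count fell to 4, 6 and 6 without the same 3 arrays where it lost calls, those of round litters 2 and 3 and flat litter 3. It fell to 5 without the flat array of litter 1, again given without a share of all tested genes. The flat array of litter 3 held the highest signal of all arrays in 66 of the 88 respiratory chain genes (75.0%) and in 35 of the 76 ribosomal genes (46.1%), against 14.9% of all tested genes. With that array left out, the median differences were 0.33 for the respiratory chain and 0.16 for the ribosome.

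**Figure D2:**
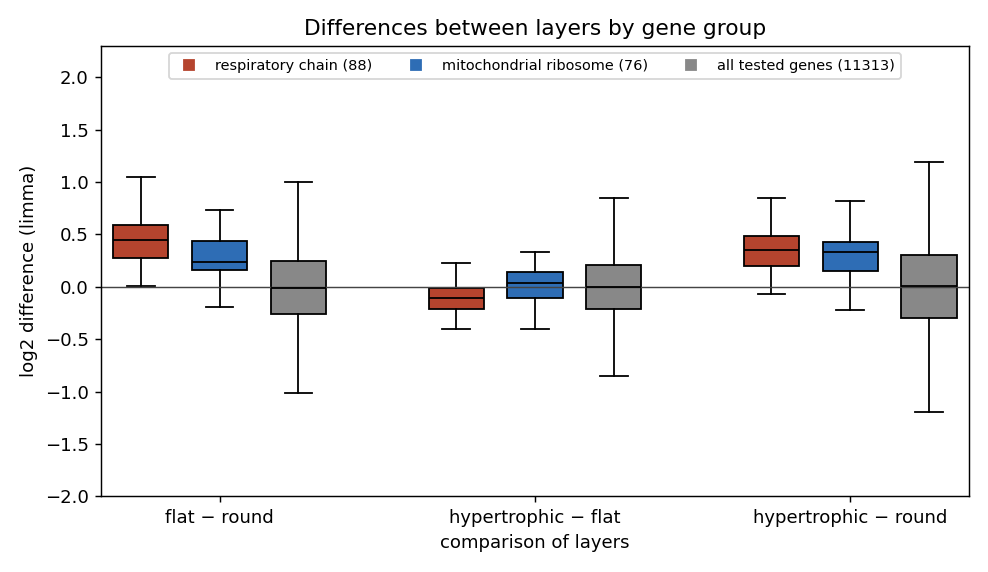
Log2 differences between layers by gene group, with the litter as a block. Boxes span the quartiles with a line at the median, whiskers reach the last gene within 1.5 times the box height, and genes beyond the whiskers are not drawn. Between the flat and the round layer the median is 0.45 for the respiratory chain and 0.24 for the mitochondrial ribosome, against -0.01 for all tested genes.

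Complex by complex, most members lay higher in the flat layer. Of the 33 complex I subunits tested, 13 were higher in the flat layer (39.4%, against 8.39% of all tested genes) and none was lower, with differences of 0.01 to 0.88 and a median of 0.41. Ndufab1, the acyl carrier protein of complex I, gave signals of 3170, 4419 and 6488 in litters 1, 2 and 3 of the flat layer, against 1861, 2973 and 2624 in the round layer. All flat arrays lay above all round arrays, and the difference was 0.88 ± 0.15 (log2, SE, n = 3 litters; limma adjusted p = 0.00188). Ndufa3, an accessory subunit, gave 9735, 11432 and 13466 in the flat layer, against 5245, 7144 and 7199 in the round layer, again without overlap (0.82 ± 0.11, adjusted p = 0.000337). Its probe set is of a type (suffix x_at) that can also bind related sequences. Ndufv2, an iron-sulfur subunit of the NADH-binding module that was chosen after its values were seen, differed by 0.79 ± 0.12 (adjusted p = 0.000697). These 3 calls held when any single array was left out. The 8 tested complex I assembly factors, which help build the complex and leave it, had 0 genes past the threshold (2 at unadjusted p under 0.05), against 17.0% of all tested genes, and a median of 0.25.

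In complex II, the 4 subunits of succinate dehydrogenase differed by 0.41 to 0.55. Sdha, the flavoprotein, gave 3461, 3606 and 6081 in the flat layer, against 3135, 3176 and 3214 in the round layer (0.41 ± 0.16, adjusted p = 0.0974). The flat arrays of litters 1 and 2 lay just above the round ones and that of litter 3 far above. Sdhb, the iron-sulfur subunit, differed by 0.46 ± 0.14 (adjusted p = 0.0432), and the membrane anchors Sdhc and Sdhd by 0.55 ± 0.16 (adjusted p = 0.0372) and 0.46 ± 0.13 (adjusted p = 0.0285). The calls of Sdhb, Sdhc and Sdhd were lost without each of at least 6 of the 9 arrays, including both round arrays of litters 2 and 3 and the flat array of litter 3, with adjusted p up to 0.22, 0.198 and 0.148. Sdhd lay nearest to the median of the whole respiratory chain. In complex III, 5 of 8 genes were higher (62.5%, against 8.39% of all tested genes) and none was lower, with a median of 0.49. Uqcrfs1, the Rieske iron-sulfur protein, differed by 0.76 ± 0.14 (adjusted p = 0.00314, chosen after its values were seen), a call that held without any single array. Uqcrq, a small subunit, differed by 0.51 ± 0.16 (adjusted p = 0.0432), and its call was lost without 8 of the 9 arrays, that is, without any but the round array of litter 1 (adjusted p up to 0.221).

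In complex V, 12 of 17 genes were higher in the flat layer (70.6%, against 8.39% of all tested genes) and none was lower, with a median of 0.52. Atp5md, a small membrane subunit known as DAPIT, gave 6536, 4869 and 10240 in the flat layer, against 2903, 2301 and 4417 in the round layer. The lowest flat array lay above the highest round array, and the difference was 1.15 ± 0.13 (adjusted p = 9.49e-05), a 2.22-fold higher level. Atp5g1, Atp5g2 and Atp5g3 encode the same mature c subunit of the rotor. Atp5g1 gave 5674, 6447 and 9084 in the flat layer, against 2827, 3444 and 3792 in the round layer (1.05 ± 0.12, adjusted p = 8.79e-05). Atp5g3 differed by 0.69 ± 0.13 (adjusted p = 0.00229) and Atp5g2 by 0.40 ± 0.12 (adjusted p = 0.0459). The catalytic beta subunit gene Atp5b, chosen after its values were seen, differed by 0.76 ± 0.12 (adjusted p = 0.00102). The Atp5g2 call was lost without 7 of the 9 arrays, without all but the flat and hypertrophic arrays of litter 1 (adjusted p up to 0.19); the other calls of this paragraph held without any single array.

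**Figure D3:**
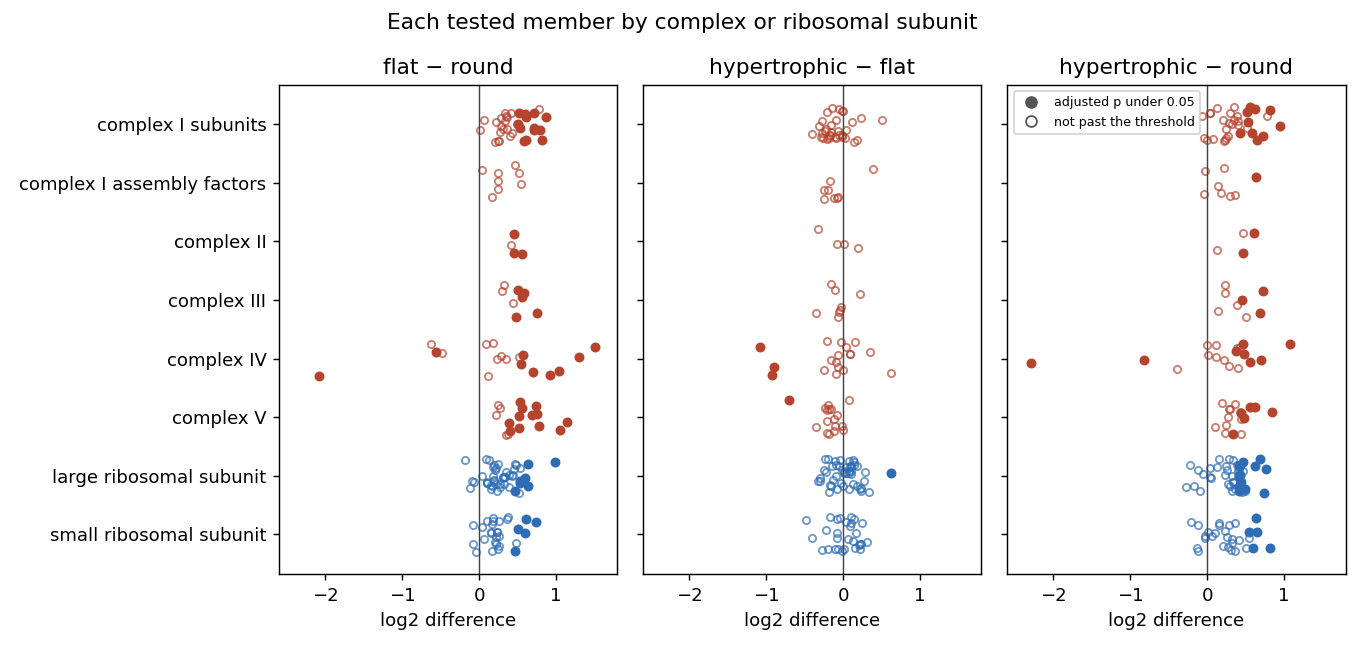
Log2 difference of each tested member by complex or ribosomal subunit, in a left panel for flat minus round, a middle one for hypertrophic minus flat and a right one for hypertrophic minus round. Filled points have an adjusted p under 0.05 and open points do not. In flat minus round, 12 of 17 complex V genes and 7 of 18 complex IV genes are filled to the right of 0, and Ndufa4l2 stands at -2.08.

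Complex IV held members that differed in both directions: 7 of 18 were higher and 2 were lower, with a median of 0.32. Over all tested genes the shares were 8.39% higher and 8.64% lower. Ndufa4 is a subunit of complex IV despite its name, and its relative Ndufa4l2 is known as a target of hypoxia-inducible factor that lowers complex I activity. Ndufa4l2 (chromosome 10) gave 5009, 6003 and 5095 in litters 1, 2 and 3 of the round layer, 1227, 1550 and 1006 in the flat layer and 1042, 1111 and 1062 in the hypertrophic layer. Every round array was above every array of the other layers. The level was 4.24-fold lower in the flat layer than in the round one (-2.08 ± 0.14 on the log2 scale, adjusted p = 2.19e-06) and 4.90-fold lower in the hypertrophic layer than in the round one (-2.29 ± 0.14, adjusted p = 1.96e-07). Between the hypertrophic and the flat layer it did not pass the test (-0.21 ± 0.14, adjusted p = 0.395). Ndufa4 ran the other way, with 2544, 3330 and 3192 on round arrays, 4315, 5902 and 7240 on flat arrays and 5793, 6938 and 6384 on hypertrophic arrays. It was higher in the flat layer than in the round one (0.92 ± 0.13, adjusted p = 0.000468) and 2.11-fold higher in the hypertrophic layer than in the round one (1.08 ± 0.13, adjusted p = 8e-05). All 4 of these calls against the round layer held without any single array.

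Other genes linked to hypoxia, from a list of 12, moved both ways: between the flat and the round layer 4 were lower and 1 was higher, against 8.64% lower and 8.39% higher of all tested genes, with a median of -0.37. Car9, a carbonic anhydrase induced by hypoxia, averaged 268 ± 120 in the flat layer and 1217 ± 567 in the round layer (SD, n = 3 each; log2 difference -2.05 ± 0.19, SE, limma adjusted p = 1.99e-05). Bnip3, a hypoxia-induced mitophagy receptor, averaged 2882 ± 1210 in the flat layer and 5111 ± 2202 in the round layer (-0.80 ± 0.16, limma adjusted p = 0.00388). Ddit4, which is also induced by hypoxia and other stress, was higher in the hypertrophic layer than in the flat one (1.31 ± 0.21, limma adjusted p = 0.00204). The calls of these 3 genes held without any single array. Cox4i2, the lung isoform of subunit 4 and also linked to hypoxia, lay low on every array, with 220, 144 and 236 on round arrays, 78, 139 and 150 on flat arrays and 151, 238 and 213 on hypertrophic arrays, and the layers overlapped. Its widely expressed partner Cox4i1 gave 12754 to 15867 on round arrays, 15800 to 18986 on flat arrays and 17990 to 18108 on hypertrophic arrays, and was higher in the hypertrophic layer than in the round one (0.37 ± 0.12, limma adjusted p = 0.0419). That call was lost without any array other than those of the round layer in litter 1 and the flat layer in litters 2 and 3 (adjusted p up to 0.213).

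Subunits 6a, 7a and 8 of complex IV have isoforms typical of heart and skeletal muscle, Cox6a2, Cox7a1 and Cox8b, beside the widely expressed Cox6a1, Cox7a2 and Cox8a. The muscle isoforms peaked in the flat layer. Cox6a2 gave 1670, 1091 and 1617 on round arrays, 2782, 2960 and 8541 on flat arrays and 1360, 1369 and 3927 on hypertrophic arrays. It was higher in the flat layer than in the round one (1.51 ± 0.25, adjusted p = 0.00118, 2.85-fold) and lower in the hypertrophic layer than in the flat one (-1.08 ± 0.25, adjusted p = 0.0143). The flat array of litter 3 was the highest by far. Cox8b gave 1113, 644 and 1296 on round arrays, 1825, 1727 and 4621 on flat arrays and 800, 1194 and 2290 on hypertrophic arrays (flat minus round 1.30 ± 0.23, adjusted p = 0.00172; hypertrophic minus flat -0.90 ± 0.23, adjusted p = 0.023). Cox7a1 gave 609, 300 and 486 on round arrays, 688, 784 and 1576 on flat arrays and 364, 541 and 585 on hypertrophic arrays (flat minus round 1.04 ± 0.27, adjusted p = 0.0186; hypertrophic minus flat -0.93 ± 0.27, adjusted p = 0.0444). In each of these genes all flat arrays were above all round arrays, and hypertrophic minus round did not pass the test. Without the flat array of litter 3 the differences between the hypertrophic and the flat layer were -0.85, -0.74 and -0.66 for Cox6a2, Cox8b and Cox7a1, with limma adjusted p of 0.0827, 0.115 and 0.22, and that of Cox7a1 between the flat and the round layer was 0.78 with an adjusted p of 0.118. The Cox6a2 call was also lost without the flat array of litter 2 or the hypertrophic arrays of litters 1 or 2, that of Cox8b without the other flat arrays or the hypertrophic arrays of litters 1 or 3, and those of Cox7a1 without the flat array of litter 2, the hypertrophic arrays of litters 1 or 3 (hypertrophic minus flat) or the round arrays of litters 2 or 3 (flat minus round); adjusted p ranged up to 0.22. Without the round array of litter 1, hypertrophic minus round was 0.81 for Cox6a2 and 0.77 for Cox8b and passed the test (adjusted p = 0.0119 and 0.00561).

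**Figure D4:**
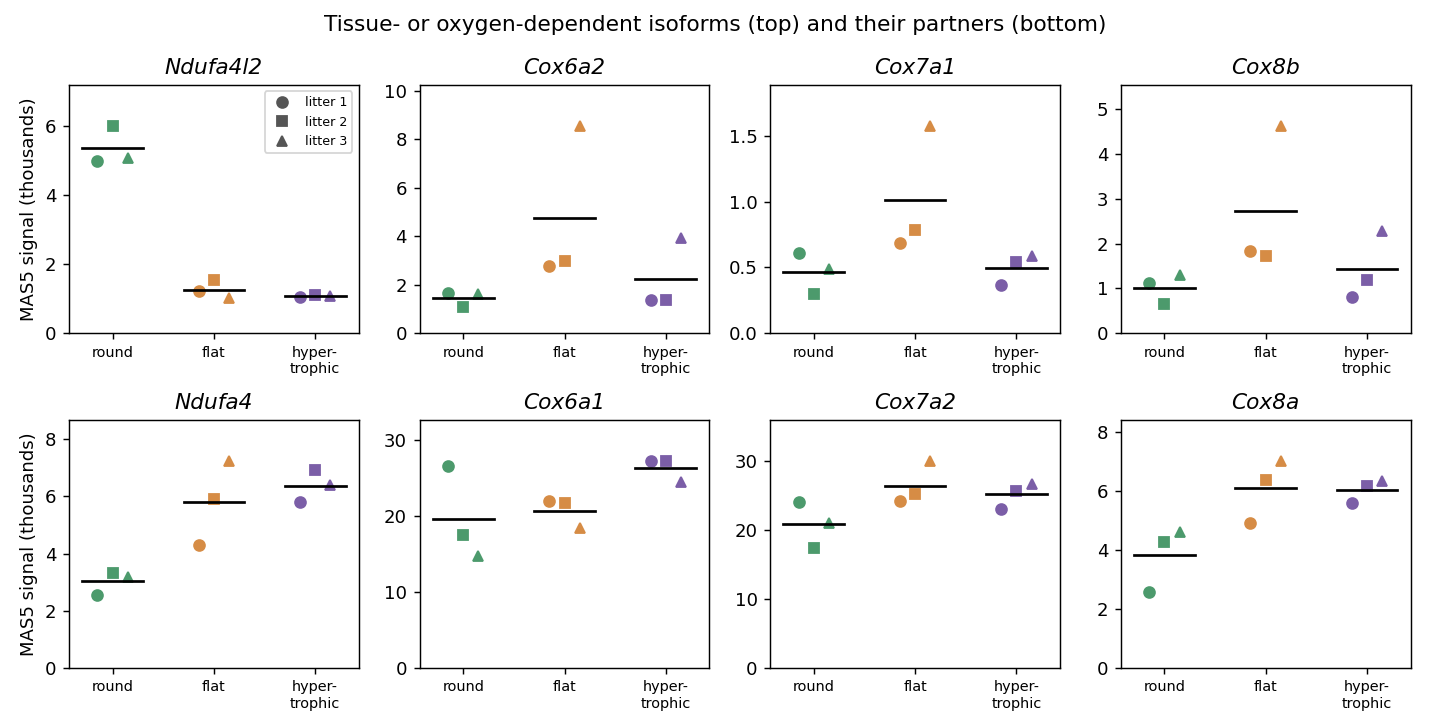
MAS5 signal on each array for 4 tissue- or oxygen-dependent members (top) and their widely expressed partners (bottom), by layer; symbols are litters and lines are layer means, and each panel has its own axis from 0. Ndufa4l2 lies between 5009 and 6003 on the round arrays and between 1006 and 1550 on all others, and the muscle isoforms Cox6a2, Cox7a1 and Cox8b are highest on the flat array of litter 3.

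The widely expressed partners differed less. Cox6a1 gave 26659, 17445 and 14749 on round arrays, 21979, 21770 and 18422 on flat arrays and 27264, 27218 and 24545 on hypertrophic arrays, and the round and flat arrays overlapped (0.12 ± 0.15, adjusted p = 0.627). It was higher in the hypertrophic layer than in the round one (0.47 ± 0.15, adjusted p = 0.0329). That call was lost without the round or hypertrophic arrays of litters 2 or 3 (adjusted p up to 0.176). Cox7a2 gave 24193, 25148 and 29996 in the flat layer, against 24097, 17354 and 20967 in the round layer (0.35 ± 0.14, adjusted p = 0.103), and passed no test with all arrays. Without the round array of litter 1, Cox7a2 passed in flat minus round (0.53, adjusted p = 0.00666) and hypertrophic minus round (0.46, adjusted p = 0.0104), Cox4i1 in flat minus round (0.39, adjusted p = 0.0333) and Cox6a1 in hypertrophic minus flat (0.35, adjusted p = 0.0229). Cox8a was higher in both other layers, with 2577, 4252 and 4617 on round arrays, 4910, 6362 and 7017 on flat arrays and 5580, 6174 and 6355 on hypertrophic arrays. Its differences were 0.70 ± 0.14 for flat minus round (adjusted p = 0.00365) and 0.70 ± 0.14 for hypertrophic minus round (adjusted p = 0.00252), and both calls held without any single array. Cox6b1, widely expressed, was higher in the flat layer than in the round one (0.54 ± 0.14, adjusted p = 0.0199), a call lost without the round arrays of litters 2 and 3 or the flat arrays of litters 2 and 3 (adjusted p up to 0.118). Cox6b2, its testis isoform, ran the other way with 990, 1013 and 956 on round arrays, 795, 689 and 521 on flat arrays and 697, 528 and 447 on hypertrophic arrays. It was lower in the hypertrophic layer than in the round one (-0.82 ± 0.16, adjusted p = 0.00275), which held without any single array, and in the flat layer than in the round one (-0.56 ± 0.16, adjusted p = 0.0311), which was lost without any flat array or the round arrays of litters 2 or 3 (adjusted p up to 0.164). Cox7a2l, which helps assemble supercomplexes, and the testis isoform Cox8c passed the test in no comparison.

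Many respiratory chain and mitochondrial ribosome genes are known targets of NRF1 and of the ETS factor GABP. The letters GCGCA, any base, GCGC (NRF1) and the letters CCGGAAG (ETS) were searched on both strands of the 300 bases from 250 before to 50 after each RefSeq gene start (GRCm38.p6). The NRF1 letters were present in 18 of 79 respiratory chain promoters (22.8%, of 74 genes matched) and in 12 of 73 ribosomal promoters (16.4%, of 67 genes), against 9.80% of promoters of tested genes and 4.60% of all promoters. The ETS letters were present in 19 (24.1%) and 25 (34.2%), against 17.0% and 8.86%. These shares describe the letters only. The 200 bases before the start of 2 widely expressed members with such letters, Cox6a1 (chr5:115348959-115349158, minus strand) and Mrpl57 (chr14:57826039-57826238, plus strand), and of 2 muscle isoforms without them, Cox7a1 (chr7:30183971-30184170, plus strand) and Cox8b (chr7:140900447-140900646, minus strand), are printed 5′ to 3′, with either set of letters, on either strand, in capitals.
Cox6a1: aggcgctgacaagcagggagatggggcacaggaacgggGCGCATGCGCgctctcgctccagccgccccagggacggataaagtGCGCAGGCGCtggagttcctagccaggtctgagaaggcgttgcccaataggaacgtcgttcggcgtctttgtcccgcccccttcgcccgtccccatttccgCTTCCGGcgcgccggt
Mrpl57: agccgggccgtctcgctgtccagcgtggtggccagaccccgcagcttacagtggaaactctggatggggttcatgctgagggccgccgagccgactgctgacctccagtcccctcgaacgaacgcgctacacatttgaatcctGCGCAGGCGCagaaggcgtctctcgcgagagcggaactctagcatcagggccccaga
Cox7a1: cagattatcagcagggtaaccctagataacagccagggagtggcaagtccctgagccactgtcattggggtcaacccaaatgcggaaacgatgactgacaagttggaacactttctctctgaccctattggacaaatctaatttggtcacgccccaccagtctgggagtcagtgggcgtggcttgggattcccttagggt
Cox8b: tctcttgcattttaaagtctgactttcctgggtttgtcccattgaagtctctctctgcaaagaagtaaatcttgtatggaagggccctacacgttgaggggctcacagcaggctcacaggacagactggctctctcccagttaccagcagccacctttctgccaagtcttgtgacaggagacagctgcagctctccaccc
Among these 4, Cox6a1 held 2 matches to the NRF1 letters, and 1 to the ETS letters on the minus strand of the printed run. Mrpl57 held 1 to the NRF1 letters. Widely expressed genes did not all hold such letters. Cox7a2, the partner of Cox7a1, held neither set in its 300 bases, while Cox8a, the partner of Cox8b, held 2 matches to the ETS letters. Either set was present in 12 of 35 promoters (34.3%) of respiratory chain genes higher in the flat layer than in the round one, against 20 of 41 (48.8%) of those not called. In ribosomal genes the counts were 2 of 9 (22.2%) and 31 of 64 (48.4%). The difference in shares was not tested.

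In the mitochondrial ribosome the called shares of both subunits lay near that of all tested genes in either direction, but every call was in the higher direction. Of the 47 large-subunit genes, 7 were higher in the flat layer than in the round one and none was lower (14.9% called, median 0.27), and of the 29 small-subunit genes, 5 were higher and none was lower (17.2% called, median 0.22). Of all tested genes 17.0% were called, with 8.39% higher. Mrpl42, a large-subunit protein, gave 2255, 3361 and 4768 in the flat layer, against 1137, 1820 and 2172 in the round layer. All flat arrays lay above all round arrays (0.99 ± 0.13, adjusted p = 0.000292, 1.99-fold). Mrpl57, another large-subunit protein, gave 2114, 2300 and 2606 in the flat layer, against 1393, 1385 and 1709 in the round layer (0.64 ± 0.13, adjusted p = 0.00476). Mrps36, which later work places in the 2-oxoglutarate dehydrogenase complex in spite of its name, differed by 0.74 ± 0.14 (adjusted p = 0.00258). These 3 calls held without any single array. Mrpl32, Mrps11, Mrpl15 and Mrpl49 differed by 0.64, 0.61, 0.59 and 0.53 with adjusted p of 0.0195, 0.02, 0.0391 and 0.0304, and each of these calls was lost without at least 4 of the 9 arrays (adjusted p up to 0.123, 0.0957, 0.214 and 0.128). Mrpl12, which also binds the mitochondrial RNA polymerase, lay nearest to the median of the group, with 2171, 2562 and 3404 in the flat layer, against 3047, 1888 and 1987 in the round layer. These overlapped, with the round array of litter 1 the second highest (0.24 ± 0.21, adjusted p = 0.491). Among the single-array omissions it passed the test only without that array.

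Between the hypertrophic and the flat layer few members differed. In the respiratory chain 0 of 88 were higher and 4 were lower (4.55%), against 11.3% of all tested genes called, 6.12% higher and 5.22% lower. The 4 were Cox6a2, Cox7a1, Cox8b and Atp5md, so that 1 of 85 remained without the muscle isoforms. Atp5md gave 3996, 3653 and 5093 in the hypertrophic layer, against 6536, 4869 and 10240 in the flat layer (-0.71 ± 0.13, adjusted p = 0.00445), a call that held without any single array. Above 0 lay 18 of 88 respiratory chain genes, against 49.3% of all tested genes, and in 4 all hypertrophic arrays were below all flat ones, against 9.43%. The median of the respiratory chain was -0.10, with litter medians of -0.051, -0.0042 and -0.28 in litters 1, 2 and 3. In the mitochondrial ribosome 1 of 76 was higher and 0 were lower (1.32%, with 5 at unadjusted p under 0.05), with a median of 0.04. That gene, Mrpl13, a large-subunit protein, gave 2805, 3142 and 2836 in the hypertrophic layer, against 1590, 1967 and 2132 in the flat layer. No hypertrophic array overlapped with a flat one (0.63 ± 0.13, limma adjusted p = 0.00888). The call was lost without the flat array of litter 1 or the hypertrophic arrays of litters 1 or 2 (adjusted p up to 0.0741). The other probe sets of Mrpl13 above the filter on low signal showed no such rise, with differences of -0.062 and -0.050. The respiratory chain count was 1 without the flat array of litter 2 or the hypertrophic array of litter 1, and 2 without the flat or the hypertrophic array of litter 3.

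The layer with the highest mean differed between the groups. Among respiratory chain genes it was the flat layer in 68 of 88 (77.3%), against 38.2% of ribosomal genes and 27.1% of all tested genes. Among ribosomal genes it was the hypertrophic layer in 42 of 76 (55.3%), against 19.3% of respiratory chain genes and 34.6% of all tested genes. These orders carry no test.

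In the hypertrophic layer set against the round layer, 28 of 88 respiratory chain genes were higher and 2 were lower (34.1%), against 25.1% of all tested genes called, 12.4% higher and 12.7% lower. The median was 0.35, with litter medians of 0.06, 0.49 and 0.44, 80 of 88 genes lay above 0 (50.6% of all tested genes did), and 56 of 88 genes were higher in all 3 litters, against 28.0% of all tested genes. In the mitochondrial ribosome 17 of 76 were higher and 0 were lower (22.4%, against 25.1% of all tested genes in either direction and 12.4% in the higher direction), with a median of 0.33 and litter medians of 0.11, 0.35 and 0.44. Of the 76, 64 lay above 0 and 45 were higher in all 3 litters, against 50.6% and 28.0% of all tested genes. This comparison shares its round arrays with flat minus round, so the 2 are not independent. The 2 lower members were Ndufa4l2 and Cox6b2. Ndufb1, an accessory complex I subunit of low signal, gave 342, 227 and 265 in the hypertrophic layer, against 131, 159 and 103 in the round layer. The layers did not overlap (0.95 ± 0.26, adjusted p = 0.0166), and the call was lost without the round or hypertrophic arrays of litters 1 or 3 (adjusted p up to 0.0926). Atp5g1 differed by 0.84 ± 0.12 (adjusted p = 0.000223), Ndufa3 by 0.81 ± 0.11 (adjusted p = 0.000202) and Uqcrq by 0.73 ± 0.16 (adjusted p = 0.00461), calls that held without any single array. Sdha differed by 0.61 ± 0.16 (adjusted p = 0.0135; lost without the round array of litter 3 or the hypertrophic arrays of litters 1 or 2, adjusted p up to 0.101). Without the round array of litter 1, the counts were 54 in the respiratory chain and 27 in the ribosome, while 25.3% of all tested genes were called. Without the round or hypertrophic arrays of litters 2 or 3, the respiratory chain count was 12 to 19 and the ribosomal count 8 to 10. Without the hypertrophic array of litter 1 the ribosomal count was 10.

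Among ribosomal genes, Mrps25, a small-subunit protein, gave 1118, 1146 and 980 in the hypertrophic layer, against 599, 586 and 613 in the round layer. The hypertrophic arrays were all above the round ones (0.82 ± 0.14, adjusted p = 0.00105). In the flat layer it gave 886, 961 and 923, between the other layers, and the difference from the round layer was 0.60 ± 0.14 (adjusted p = 0.0113; 0.0665 without the round array of litter 2). Mrpl42 differed by 0.76 ± 0.13 (adjusted p = 0.00113), Mrpl57 by 0.74 ± 0.13 (adjusted p = 0.00119) and Mrps28 by 0.64 ± 0.12 (adjusted p = 0.00254) between the hypertrophic and the round layer. Mrpl34 and Mrpl20, both of the large subunit, differed by 0.69 ± 0.16 (adjusted p = 0.00608) and 0.62 ± 0.13 (adjusted p = 0.00431). These 6 calls between the hypertrophic and the round layer, Mrps25 included, held without any single array.

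The members were then set beside skeletal muscle RNA. All 20 muscle markers, contractile and metabolic genes of muscle fibres such as Acta1 and Ckm, were higher in the flat layer than in the round one (median 1.54), and 19 of 20 were lower in the hypertrophic layer than in the flat one (median -1.08). Between the hypertrophic and the round layer 3 of 20 were higher and none was lower (median 0.40). The muscle score, the mean of the 20 markers on the log2 scale relative to each marker's mean, was -0.48, -1.12 and -0.21 in litters 1, 2 and 3 of the round, 0.45, 0.47 and 1.55 of the flat and -0.94, -0.37 and 0.64 of the hypertrophic layer. The respiratory chain mean on the same arrays was -0.16, -0.35 and -0.23, then 0.01, 0.06 and 0.47, then -0.05, 0.07 and 0.18 in these layers. Both were lowest on the round array of litter 2 and highest on the flat array of litter 3. In litter 1 they parted: the muscle markers were lower in the hypertrophic layer than in the round one (median -0.45). There the respiratory chain median was 0.06 and the ribosomal median 0.11. The round array of that litter is the one with the highest 3′ to 5′ ratios.

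With the muscle score as a covariate in the same model, the calls between the flat and the round layer were mostly lost. The respiratory chain count was 2 instead of 42 and its median -0.05 instead of 0.45, with a median standard error of 0.32 instead of 0.14; the ribosomal count was 0 instead of 12 (median -0.11). The 2 genes were Cox8a, higher in the flat layer (1.38 ± 0.26), and Ndufa4l2, lower (-1.94 ± 0.33). For Cox8a the covariate raised the difference from 0.70. On the round array of litter 1, Cox8a stood at 0.558 of the higher of the other round arrays. Calls over all genes dropped as well, with 374 instead of 1926. Between the hypertrophic and the round layer the loss was smaller: 21 of the 30 respiratory chain calls and 9 of the 17 ribosomal calls were present with the covariate, with medians of 0.21 and 0.25 and a median standard error of 0.15 in the respiratory chain. Over all genes the loss was small there too, with 2741 of 11313 called instead of 2840, and 2284 called both ways. With the covariate, 21 of 88 respiratory chain genes and 12 of 76 ribosomal genes were called. The muscle isoforms stood at 0.10 ± 0.46 for Cox6a2, -0.45 ± 0.52 for Cox7a1 and -0.23 ± 0.33 for Cox8b between the flat and the round layer. The part of the score not set by layer and litter was largest on the round and hypertrophic arrays of litter 1 (0.442 and -0.391, others -0.266 to 0.201). The covariate thus rested mainly on that litter, whose round array had the highest 3′ to 5′ ratios. With the covariate and without the round array of litter 1, a setting added after the data were seen, the median standard error was 0.87 in the respiratory chain, the median was 0.66, and 0 of 11313 genes were called between the flat and the round layer (522 at unadjusted p under 0.05). The muscle markers themselves were higher in the flat layer than in the round one. The part of muscle RNA in the difference between these layers and that of the layer itself therefore cannot be told apart, with or without that array.

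**Figure D5:**
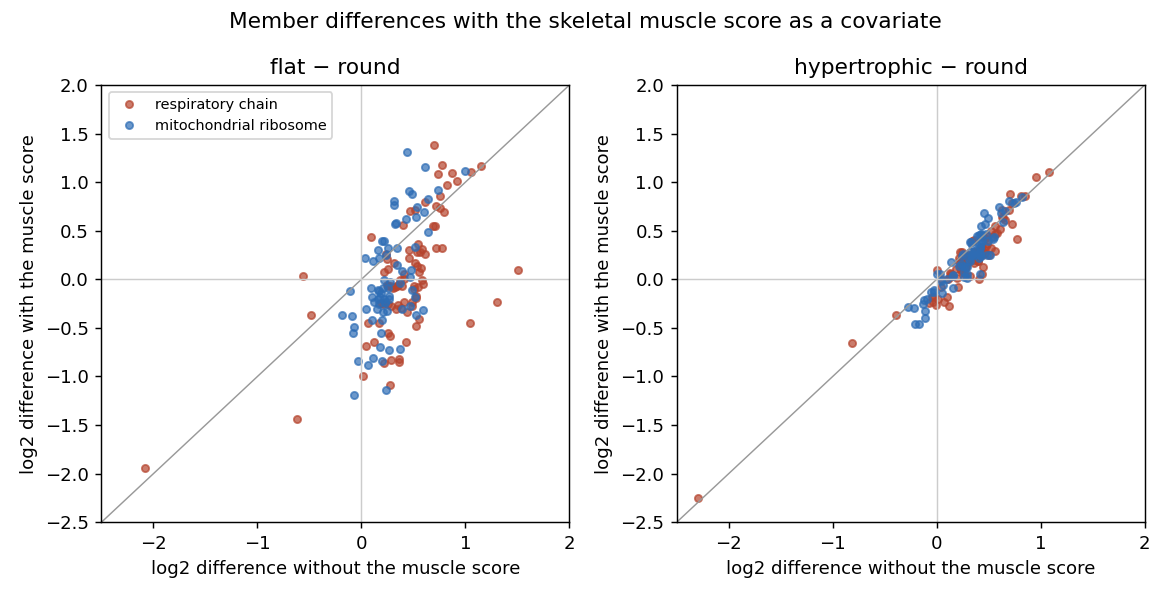
Log2 difference of each tested member without (horizontal axis) and with (vertical axis) the skeletal muscle score as a covariate, for flat minus round (left) and hypertrophic minus round (right); the diagonal marks equal values. On the left most members lie to the right of 0 and spread around a vertical median of -0.05 (respiratory chain) or -0.11 (ribosome). Ndufa4l2 stays at -1.94. On the right the medians are 0.35 without and 0.21 with the score in the respiratory chain, and 0.33 and 0.25 in the ribosome.

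Within layer and litter, the slope of log2 signal on the muscle score was computed for the members. The score is the mean of the 20 muscle markers, so their own slopes average near 1 by construction and are no result. The slope was 1.04 for the median of the 3 muscle isoforms, 0.28 for the other 85 respiratory chain genes (66 above 0, none past the threshold) and 0.22 for the 76 ribosomal genes (53 above 0, none past the threshold). Over all tested genes it was 0.0047, with 0.645% past the threshold. These slopes were computed after the data were seen and rest on the same litter 1 arrays. The round one of these had the highest 3′ to 5′ ratios, and the part of RNA quality in the slopes was not tested. Of 10 osteoclast markers tested, 9 were higher in the hypertrophic layer than in the flat one (median 2.61), where the respiratory chain median was -0.10. Between the flat and the round layer 6 were higher and 1 was lower (median 0.92), where the respiratory chain median was 0.45. Between the hypertrophic and the round layer 9 were higher (median 2.96). Of 6 osteoblast markers, 5 were higher in the flat layer than in the round one (median 2.28). In hypertrophic minus flat 4 were higher (median 1.11), and in hypertrophic minus round 5 were (median 3.51). The part of osteoclast or osteoblast RNA in these differences was not tested.

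Genes that work with the members differed in the same comparison to a varying degree. Of 15 tricarboxylic acid cycle genes, 7 were higher in the flat layer than in the round one (46.7%, against 8.39% of all tested genes) and none was lower (median 0.52). Idh3a, a subunit of the NAD-dependent isocitrate dehydrogenase, averaged 4884 ± 2707 in the flat layer and 1917 ± 685 in the round layer (SD, n = 3 each; log2 difference 1.26 ± 0.14, SE, limma adjusted p = 8.06e-05). Dlat, the acetyltransferase of pyruvate dehydrogenase, differed by 0.95 ± 0.16 (adjusted p = 0.00144). Of 24 genes for cytochrome c and chain assembly outside the symbols above, 6 were higher and 1 was lower (29.2% called, against 17.0% of all tested genes; median 0.29). Cycs, cytochrome c itself, differed by 0.79 ± 0.18 (adjusted p = 0.0103) and Cyc1, the cytochrome of complex III, by 0.69 ± 0.15 (adjusted p = 0.00822). Ttc19, which helps maintain complex III, was lower (-0.67 ± 0.21, adjusted p = 0.0451). The calls of Cycs (without the round arrays of litters 2 and 3 or the flat array of litter 3), Cyc1 (without the round array of litter 2) and Ttc19 (without 7 of the 9 arrays) were lost when those were left out (adjusted p up to 0.0563, 0.0542 and 0.252). Of 22 genes for mitochondrial translation outside the ribosome, 3 were higher and none was lower (13.6% called, against 17.0% of all tested genes in either direction and 8.39% in the higher direction). Of the regulators of mitochondrial biogenesis, 1 of 16 was higher and none was lower (6.25%, median 0.01). That gene was Ppargc1b, a coactivator of mitochondrial gene programmes, which averaged 1054 ± 222 in the flat layer and 529 ± 115 in the round layer (0.96 ± 0.16, limma adjusted p = 0.00122, held without any single array).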

How the data were processed

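The deposited table holds MAS5 signal intensities of 45101 probe sets on 9 Affymetrix arrays, made by the authors with MAS5 in Affymetrix Expression Console, per the submitters' processing notes, where no version is given. Every deposited array has the same mean intensity, 500.003, after 2% of values at either end are left out. Pairs of arrays with identical values numbered 0. Of the probe sets, 64 are controls, 34945 were annotated to 1 gene, 932 to several and 9160 to none; the single-gene ones gave 18193 genes, each read from its probe set with the highest mean.

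Signals were taken as log2(signal + 26), so fold changes of low genes are understated. Genes with a mean under 7.21 on that scale (a signal of about 122) were left out, and 11313 were kept. limma 3.58.1 (R 4.3.3) was fitted with layer and litter as fixed terms, a mean-variance trend and Benjamini-Hochberg adjustment per comparison at 0.05. The fit had 4 residual degrees of freedom, and the number of arrays limits its precision. The code was tested on simulated data. The labels give 3 litters and replicate numbers 1 to 3 in each layer; the number was taken as the litter and used as the block. Deviations from the layer means correlated at 0.167 to 0.517 between arrays of the same litter (9 pairs) and at -0.434 to 0.0815 between litters. Deviations within a layer sum to 0, so positive values within litters bring negative ones between litters. The contrast between these ranges is thus partly built in.

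Named genes are isoform families and complex II whatever their values, up to 8 members with the largest called difference of 1 direction in all 3 litters per comparison and group, calls against the group's direction, the members nearest the medians, and the 2 genes of each pathway list with the largest called difference. The members, lists and tests were chosen with earlier results of these data known. Promoter sequences came from RefSeq. A comparison of protein isoform sequences was not run.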

Additional observations from a re-analysis of the deposited data

How the results depend on the processing

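Of 37 named members called between the flat and the round layer, 20 kept the call without every single array, as did 18 of 34 between the hypertrophic and the round layer and 1 of 5 between the hypertrophic and the flat layer. Listing flat minus round first, then hypertrophic minus flat, then hypertrophic minus round, respiratory chain counts of 42, 4 and 30 ranged over 21 to 60, 1 to 5 and 12 to 54 without single arrays, and ribosomal counts of 12, 1 and 17 over 4 to 17, 0 to 1 and 8 to 27; leaving out an array lowers the residual degrees of freedom. With no replicate block the respiratory chain counts were 13, 0 and 13 and the ribosomal counts 3, 1 and 9, so the counts depend on the litter term; medians are the same by construction. With no mean-variance trend they were 24, 1 and 18, and 8, 1 and 11. With the mean of all single-gene probe sets in place of the brightest, ribosomal counts were 6 between the flat and the round layer and 9 between the hypertrophic and the round layer. Arrays centred on their medians (shifts of -0.11 to 0.14) gave 28 respiratory chain calls between the flat and the round layer (median 0.39) and 8 ribosomal ones (median 0.18). Without the litter 1 round array and the litter 3 flat array together, the respiratory chain counts were 50, 8 and 59 and the ribosomal counts 11, 2 and 30. Other pseudocounts, no filter and quantile normalization kept every group count within 1.5 times. Counts here and above that stand without a share of all tested genes do not show whether members shifted apart from other genes.

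With the muscle score as a covariate the respiratory chain counts were 2, 1 and 21 and the ribosomal counts 0, 1 and 12, while 374, 183 and 2741 of 11313 tested genes were called. The respiratory chain medians were -0.053, 0.17 and 0.21 and the ribosomal medians -0.11, 0.24 and 0.25. The 1 respiratory chain call between the hypertrophic and the flat layer was Cox6a1, higher. With the covariate and without the round array of litter 1, the respiratory chain counts were 0, 0 and 1 (Ndufa4l2, lower) and the ribosomal counts 0, 0 and 0, while 0, 0 and 197 of all tested genes were called (522, 519 and 1537 at unadjusted p under 0.05).

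Among the named genes, differences that had passed the test changed sign in 3 settings, and only these are listed here. Other members changed sign as well. With the muscle covariate, flat minus round went from 0.24 to -1.14 for Mrpl12 and from 0.12 to -0.65 for Cox6a1. The respiratory chain median itself went from 0.45 to -0.05. With the mean of all probe sets, Sdha stood at -0.10 for hypertrophic minus round and Uqcrq at -0.037 for flat minus round. With the muscle covariate, flat minus round was -0.078 for Cox6b1, 0.036 for Cox6b2, -0.45 for Cox7a1, -0.23 for Cox8b, -0.31 for Mrpl15, -0.10 for Uqcrq and -0.048 for Tufm, and hypertrophic minus flat was 0.17 for Cox7a1 and 0.23 for Cox8b. With the covariate and without the round array of litter 1, flat minus round was -1.13 for Mrpl32, 0.89 for Ttc19 and -0.89 for Tufm, and hypertrophic minus flat was 0.050 for Cox8b, 0.44 for Aars2 and -0.73 for Ddit4. The cause was not tested. Other probe sets of called members moved the same way in 30 of 38 between the flat and the round layer, 1 of 3 between the hypertrophic and the flat layer and 21 of 25 between the hypertrophic and the round layer.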

Other observations

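Of 14 fatty acid oxidation genes, 4 were higher in the flat layer than in the round one and none was lower (28.6% called, against 17.0% of all tested genes in either direction and 8.39% in the higher direction; median 0.47). Acadl, the long-chain acyl-CoA dehydrogenase, averaged 4273 ± 2381 in the flat layer and 2119 ± 271 in the round layer (SD, n = 3 each; log2 difference 0.88 ± 0.18, SE, limma adjusted p = 0.00449). Hadh, which acts on shorter chains, was the 1 gene of the list that was lower in the hypertrophic layer than in the flat one (-0.44 ± 0.11, limma adjusted p = 0.0254), a call lost without any flat array or the hypertrophic arrays of litters 2 or 3 (adjusted p up to 0.167). Slc25a20, the carnitine carrier, was higher in the hypertrophic layer than in the round one (0.79 ± 0.16, limma adjusted p = 0.00307). Of 16 import and chaperone genes, 4 were higher in the flat layer than in the round one and 6 in the hypertrophic layer than in the round one, and none was lower in either. These are 25.0% and 37.5% called, against 17.0% and 25.1% of all tested genes in either direction and 8.39% and 12.4% in the higher direction. Hspd1, the matrix chaperonin, averaged 7272 ± 1705 in the flat layer and 4389 ± 766 in the round layer (0.71 ± 0.12, limma adjusted p = 0.00124) and 7971 ± 917 in the hypertrophic layer. The calls of Acadl, Slc25a20 and Hspd1 held without any single array.

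Of the 13 protein-coding transcripts of the mitochondrial genome, ND5 of complex I was the 1 measured here. It gave 11599, 21539 and 42454 in litters 1, 2 and 3 of the round, 64226, 62644 and 63657 in the flat and 40077, 33192 and 51924 in the hypertrophic layer. The flat arrays lay close together, and the round arrays spread widely, with the array of the highest 3′ to 5′ ratios lowest. The difference between the flat and the round layer was 1.53 ± 0.27 (limma adjusted p = 0.00168), and 1.07 without the round array of litter 1 (adjusted p = 0.00141). Between the hypertrophic and the round layer it was 0.90 ± 0.27 (adjusted p = 0.0261), and 0.44 without that array (adjusted p = 0.0868).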
